A study of Mus musculus with 7 samples.

Results

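Granins and the proteins of the granule membrane were followed in islets of second-generation (F2) male mice through 8 genes, *Chga*, *Chgb*, *Scg2*, *Scg3*, *Vgf*, *Ptprn*, *Ptprn2* and *Slc30a8*. They were chosen by name as the dense core granule genes of 3 kinds, granins, the *Ptprn* family and the zinc transporter of the granule, and all 8 were found among the 21899 genes listed. The study asked whether androgen given to a pregnant mother alters the metabolism of her male descendants, and RNA-seq of islets was 1 of its readouts. Mothers of the founder generation (F0), of the C57BL/6J strain, received daily subcutaneous dihydrotestosterone late in pregnancy (androgen exposure, AE), and the control mothers received its vehicle, benzyl benzoate in corn oil. Their sons (F1) were not treated further and were bred with wild-type females, so that both F2 groups share the strain and an unexposed mother. The labels name 3 samples Ctrl and 4 samples HA, which is the paper's short form for hyperandrogenism. They are read here as the control and androgen exposure groups and called control-F2 and AE-F2. Of these, replicate 1 of the control-F2 group and replicate 4 of the AE-F2 group were used here, called the control library and the AE library, and the other 5 were not analysed here. The sources used here do not give the age of the F2 males behind these libraries, nor whether a library came from 1 male or from several.

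Endocrine cells store their hormones in dense core granules. Granins are acidic proteins that aggregate in the secretory pathway, help to pack prohormones into forming granules and are themselves cut into peptides, so they are used as general markers of neuroendocrine cells. *Ptprn* (IA-2) and *Ptprn2* (phogrin) encode receptor-type tyrosine phosphatase homologues that span the granule membrane and have lost most of their enzyme activity, and *Slc30a8* (ZnT8) encodes the transporter that brings zinc into the granule, where it crystallises with insulin. All 3 membrane proteins are known autoantigens of autoimmune diabetes.

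The files gave estimated counts per gene, with a sum of 16285876 in the control library against 21278503 in the AE library. With 1 library per group there is no replicate check, no test was made, and every ratio compares these libraries and not the conditions. Ratios are log2 of AE over control on scaled counts, with a 95% Clopper-Pearson interval for counting error only, which leaves out any spread between samples. The interval takes reads as independent. Reads amplified by PCR are not independent molecules, so it can be too narrow even for counting error. The islet label held against its markers, as *Ins1*, *Ins2* and *Iapp* made up 19.5% of the control counts and 19.6% of the AE counts, and *Gcg* 1.60% and 2.20%. The lymphocyte markers stood apart, summing to 15.5 CPM (counts divided by the library sum and brought to one scale) in the control library, where *Cd3d*, *Cd3e* and *Cd3g* were at 0, against 388 CPM in the AE library, where none of the 10 was at 0.

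The promoters of the 4 abundant granin genes are printed here because cyclic AMP response elements (CREs), the letters TGACGTCA bound by CREB-type factors, are a known feature of granin promoters. Each window is 300 bases from RefSeq on GRCm38.p6, from 250 bases before the annotated start to 50 after it, on the strand of the gene, and capitals mark TGACGTCA or its short form, TGACG, on either strand.
Scg2: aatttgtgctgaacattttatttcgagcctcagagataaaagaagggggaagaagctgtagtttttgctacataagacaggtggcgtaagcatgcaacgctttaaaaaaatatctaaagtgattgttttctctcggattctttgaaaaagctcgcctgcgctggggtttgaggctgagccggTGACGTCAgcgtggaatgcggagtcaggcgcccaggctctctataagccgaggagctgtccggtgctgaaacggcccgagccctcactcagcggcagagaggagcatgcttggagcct
Chgb: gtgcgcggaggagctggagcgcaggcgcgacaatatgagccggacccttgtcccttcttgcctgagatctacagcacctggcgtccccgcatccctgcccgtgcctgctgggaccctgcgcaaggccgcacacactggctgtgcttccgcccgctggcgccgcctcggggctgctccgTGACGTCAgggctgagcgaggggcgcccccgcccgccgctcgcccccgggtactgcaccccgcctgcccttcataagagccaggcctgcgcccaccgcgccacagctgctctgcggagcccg
Scg3: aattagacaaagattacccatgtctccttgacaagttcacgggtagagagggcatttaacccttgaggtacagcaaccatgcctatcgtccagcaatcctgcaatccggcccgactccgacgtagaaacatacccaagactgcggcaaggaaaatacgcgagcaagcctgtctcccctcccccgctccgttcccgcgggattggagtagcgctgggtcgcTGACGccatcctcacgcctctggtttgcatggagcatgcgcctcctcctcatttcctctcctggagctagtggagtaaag
Chga: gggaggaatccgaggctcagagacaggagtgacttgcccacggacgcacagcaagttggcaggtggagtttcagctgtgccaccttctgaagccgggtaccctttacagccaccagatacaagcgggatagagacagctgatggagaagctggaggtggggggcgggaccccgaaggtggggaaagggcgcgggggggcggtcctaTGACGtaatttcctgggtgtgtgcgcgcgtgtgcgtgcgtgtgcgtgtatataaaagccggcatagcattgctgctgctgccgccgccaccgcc
They lie at chr1:79439977-79440276 (*Scg2*, minus strand), chr2:132781392-132781691 (*Chgb*, plus strand), chr9:75684007-75684306 (*Scg3*, minus strand) and chr12:102554691-102554990 (*Chga*, plus strand). The full element stood in the *Scg2* window at position -68 and in the *Chgb* window at position -72, counted with the RefSeq start as 0. RefSeq starts need not be the GENCODE starts given for each gene below, and positions depend on the start used. In GENCODE the *Chga* gene starts at chr12:102554969, after its RefSeq start. The *Chgb* gene starts at chr2:132781278 in GENCODE, so its whole printed window lies inside the gene. The *Chga* and *Scg3* windows held only the short form, at positions -44 and -30. RefSeq windows were found for 6 of the 8 genes, 7 windows in all with a pair for *Ptprn*, and the named genes without one are *Vgf* and *Slc30a8*. The full element was in 2 of the 7 windows and in 1.79% of all 32851 windows of that length, and the short form, which every full element contains, was in 5 of the 7 and in 20.8% of all. Of the membrane protein genes, *Ptprn* held the short form at positions -117 and -80 of one window, and the *Ptprn2* window held neither form. The TATAAA motif was in 1 of the 7 windows (*Chga*, at position 5) and in 13.6% of all, CCAAT in 1 (*Scg3*) and in 37.4%, GGGCGG in 4 and in 35.7%, and the AP-1 motif in 0 and in 5.20%, both strands searched. These matches describe the letters and show no binding.

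In levels per transcript length (TPM, computed with a representative GENCODE M21 transcript), the 8 genes ran in the same order in both libraries, from *Chga* through *Scg2*, *Scg3*, *Chgb*, *Slc30a8*, *Ptprn2* and *Ptprn* to *Vgf*. *Chga* was at 14272 TPM in the control library and 14042 TPM in the AE library, and *Vgf* at 15.9 and 13.8 TPM, so the range of levels among the granins was 900-fold and 1020-fold. *Chga* and *Scg2* alone held 78.1% and 78.2% of the counts of the 8 genes. The 3 membrane protein genes lay close together, between 302 and 954 TPM, all below the 4 abundant granins and above *Vgf*. Their order depended on the length used, as *Ptprn2*, whose merged exons cover 8602 bases against 3201 in the representative transcript, was 1.83-fold and 1.97-fold above *Ptprn* with the transcript and at 0.816 and 0.874 of it with merged exons. The other neighbours in the order kept their places with merged exons. No spread over samples is known for these levels, so which neighbours differ beyond it cannot be said.

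**Figure D1:**
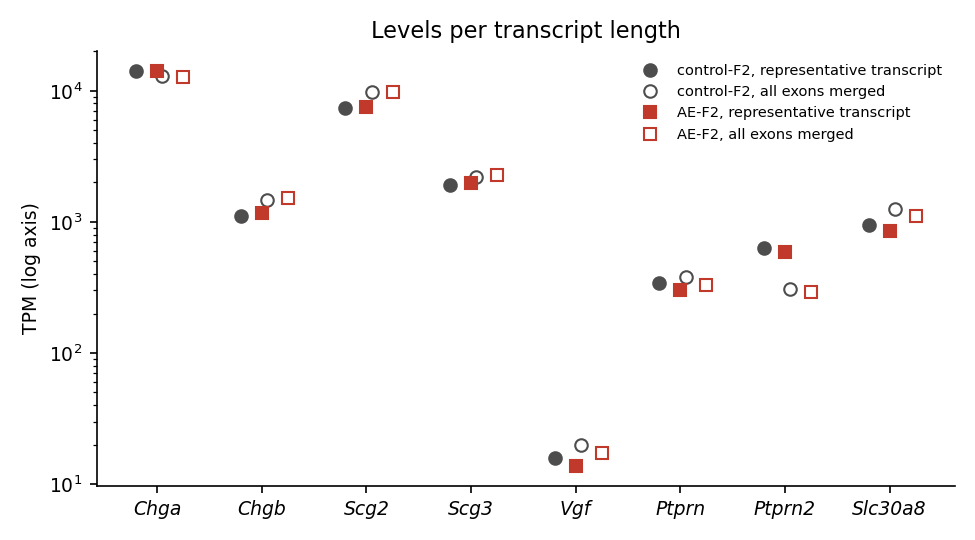
Level per transcript length (TPM, log axis) of each gene in the control library (circles) and the AE library (squares), with the length of a representative transcript (filled) or of all exons merged (open). The libraries nearly coincide for each gene while the genes span 900-fold, and *Ptprn2* is at 630 TPM in the control library with its transcript and at 310 TPM with all its exons.

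Across both libraries the 8 genes differed by little. None was past 2-fold in either direction, with 3.2% of the 13627 genes of at least 10 counts on average past 2-fold higher and 0.646% past 2-fold lower in the AE library. Of the members, 4 had a counting interval above equality (*Chga*, *Chgb*, *Scg2*, *Scg3*), 3 had one below it (*Ptprn*, *Ptprn2*, *Slc30a8*) and 1 had one that included it (*Vgf*). Over all genes tested 13.4% lay above and 13.4% below, and over the 3471 genes averaging 1000 counts or more 16.3% lay above and 24.9% below. The intervals are narrow at these depths, so that even a ratio near 0 can lie off equality. The median log2 ratio of the members was -0.02, beside 0.00 over all genes and -0.02 over the genes of at least 1000 counts. The members had a median of 0.0030 once trends over GC content and transcript length were taken out, and 4 then lay above equality and 2 below. The shares over all genes are given only without that removal.

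**Figure D2:**
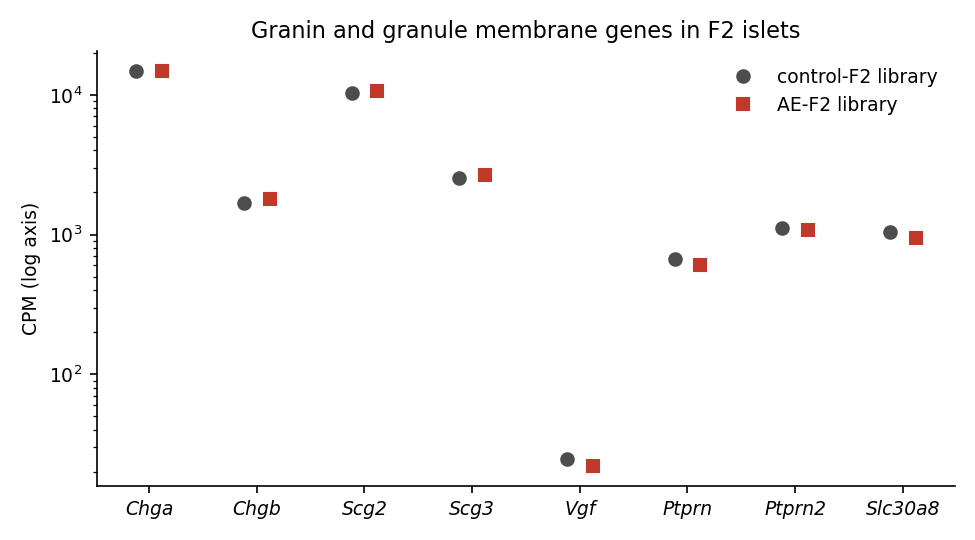
CPM (log axis) of the 8 genes in the control library (circles) and the AE library (squares), 1 library each. The pairs lie side by side, from 14829 and 14932 CPM for *Chga* down to 24.8 and 22.0 CPM for *Vgf*.

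*Chga* encodes chromogranin A, the precursor of pancreastatin and vasostatin, and its gene (ENSMUSG00000021194) lies at chr12:102554969-102565028 on the plus strand (GRCm38) with 8 exons in its representative transcript. It had 241499 counts (14829 CPM) in the control library and 317730 counts (14932 CPM) in the AE library, ranking 5 and 6 among all genes. These levels were nearly the same, with a log2 ratio of 0.014 (0.0063 to 0.022), or 0.969% higher in the AE library. A larger absolute ratio was found for 90.5% of the genes of at least 1000 counts. The value was 0.044 with trends over GC content and transcript length removed, and 0.030 with library totals taken without *Ins1*, *Ins2*, *Gcg* and the mitochondrial genes.

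*Scg2* encodes secretogranin II, the precursor of secretoneurin (ENSMUSG00000050711, chr1:79434669-79440120, minus strand, 2 exons). Its counts were 167423 (10280.3 CPM) and 226512 (10645 CPM), rank 7 in both libraries. The AE library was 3.83% higher, a log2 ratio of 0.054 (0.045 to 0.063), and 62.7% of the genes of at least 1000 counts had a larger absolute ratio. Without the GC and length trends the ratio was 0.021. Within the pair of most abundant granins, *Chga* took 59.1% (58.9 to 59.2) of the *Chga* and *Scg2* counts in the control library and 58.4% (58.2 to 58.5) in the AE library, a share that needs no scaling between libraries.

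*Scg3* encodes secretogranin III, which binds chromogranin A and the cholesterol-rich granule membrane (ENSMUSG00000032181, chr9:75643189-75684056, minus strand, 12 exons). It had 41076 counts (2522 CPM) in the control library and 56724 counts (2666 CPM) in the AE library. The log2 ratio was 0.084 (0.065 to 0.10), or 5.98% higher in the AE library, near the median absolute ratio of 0.08 of the genes of at least 1000 counts. It was 0.045 without the GC and length trends.

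*Chgb*, chromogranin B, had the highest ratio of the 8 (ENSMUSG00000027350, chr2:132781278-132795079, plus strand, 5 exons). Its counts were 27206 (1671 CPM) in the control library and 38363 (1803 CPM) in the AE library. That is 8.22% higher, a log2 ratio of 0.11 (0.091 to 0.14), and 30.8% of the genes of at least 1000 counts had a larger absolute ratio. *Chga* stood 12.9-fold above *Chgb* per length in the control library and 12.1-fold in the AE library.

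*Vgf*, a granin-like precursor of several neuroendocrine peptides, was far lower than the others (ENSMUSG00000037428, chr5:137026392-137033351, plus strand, 5 exons). It had 404 counts (24.8 CPM) in the control library and 469 counts (22.0 CPM) in the AE library. The log2 ratio was -0.17 (-0.36 to 0.029), so a difference of this size could not be told from counting error, and 38.6% of all genes tested had a larger absolute ratio. The value was -0.039 without the GC and length trends. Chromogranin B stood 69.7-fold and 84.6-fold above *Vgf* per length.

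The 3 genes of the granule membrane were lower in the AE library. *Ptprn* (ENSMUSG00000026204, chr1:75247027-75264502, minus strand, 23 exons) had 10961 counts (673 CPM) in the control library and 12891 counts (606 CPM) in the AE library. It was lower by 9.74%, a log2 ratio of -0.15 (-0.18 to -0.11), and 20.1% of the genes of at least 1000 counts had a larger absolute ratio. Without the GC and length trends its ratio was -0.067. An antisense gene of GENCODE, Gm28294, overlaps *Ptprn* exons by 189 bases, of 4249 with all exons merged. Since the library kit does not mark strand, reads of the overlap cannot be told apart. Gm28294 was not among the genes listed with counts.

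*Slc30a8* (ENSMUSG00000022315, chr15:52295553-52335798, plus strand, 8 exons) had 16903 counts (1038 CPM) in the control library and 20091 counts (944 CPM) in the AE library. The zinc transporter was lower by 8.78%, a log2 ratio of -0.13 (-0.16 to -0.10), with 24.1% of the genes of at least 1000 counts at a larger absolute ratio. Its ratio was -0.19 without the GC and length trends, in absolute value the largest of the members under that setting. Per length it stood 2.78-fold and 2.81-fold above *Ptprn*.

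*Ptprn2* is the longest of the genes, spanning 791130 bases (ENSMUSG00000056553, chr12:116485720-117276849, plus strand, 23 exons), and holds the microRNA gene *Mir153* and 5 other annotated genes, none of which overlaps its exons. Its counts were 18113 (1112 CPM) in the control library and 22818 (1072 CPM) in the AE library. The ratio was small, -0.049 (-0.077 to -0.021) on the log2 scale, and 66.8% of the genes of at least 1000 counts had a larger one in absolute value. Without the GC and length trends it was -0.015, with an interval that included equality. Between the paralogues, *Ptprn* took 37.7% (37.1 to 38.3) of their joint counts in the control library and 36.1% (35.6 to 36.6) in the AE library.

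**Figure D3:**
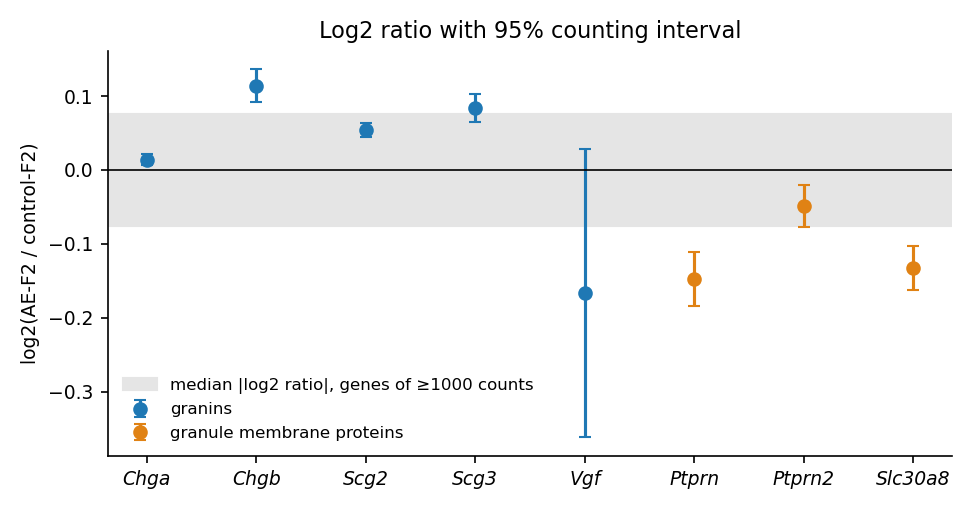
Log2 ratio of AE over control for the 8 genes, with 95% counting intervals (bars). The grey band marks the median absolute ratio, 0.08, of the genes of at least 1000 counts. The 4 abundant granins (blue) lie above 0 and the 3 membrane protein genes (orange) below it, and the interval of *Vgf* spans 0.

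On TMM-scaled counts the 4 abundant granins and the 3 membrane protein genes lay on opposite sides of equality. *Ptprn2* included equality once the GC and length trends were removed. The remaining granin, *Vgf*, had a negative ratio, -0.17, with an interval that included equality. The side of *Chga* depended on the measure, as its TPM was 14272 in the control library and 14042 in the AE library. Its share of the counts of the 8 genes was 46.1% (46.0 to 46.3) and 45.7% (45.6 to 45.8). The 5 granins summed to 2.93% of the control counts and 3.01% of the AE counts, a log2 ratio of 0.040 (0.035 to 0.045). The 3 membrane protein genes summed to 0.282% and 0.262%, a log2 ratio of -0.10 (-0.12 to -0.085). Within the 8 genes, the membrane share was 8.78% (8.70 to 8.86) in the control library and 8.02% (7.96 to 8.09) in the AE library, again free of the scaling between libraries. Of the granins with the insulins and amylin, the granins took 13.1% (13.0 to 13.1) and 13.3% (13.3 to 13.3). The membrane protein genes took 1.42% (1.41 to 1.44) and 1.32% (1.31 to 1.33) of the sum with the same hormones. Against *Gcg*, which was higher in the AE library, the granins took 64.6% of the joint counts in the control library and 57.8% in the AE library.

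**Figure D4:**
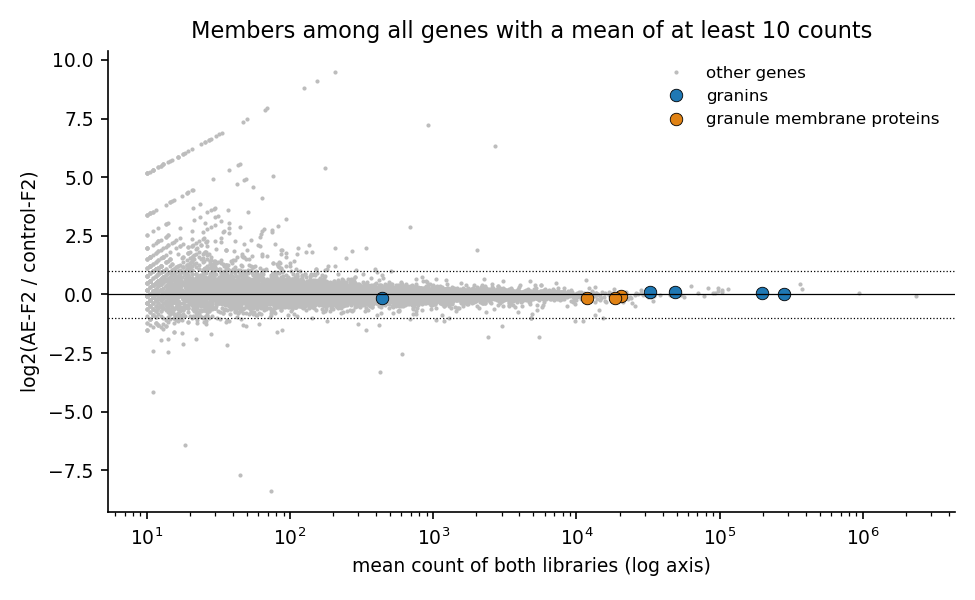
Log2 ratio of AE over control against the mean count of both libraries (log axis) for 13627 genes (grey), with the granins in blue and the membrane protein genes in orange. Dotted lines mark 2-fold. All 8 members lie close to 0, and 7 of them lie among the genes of highest count.

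Markers of several cell types differed between these libraries, and their part in the members' values was not tested. In bulk islets, fewer cells of a type and less RNA per cell cannot be told apart. The 7 α-cell markers summed to 16163 and 22112 CPM, with 4 of 7 above equality and 0 below. The 8 β-cell markers summed to 20.2% of counts in both libraries, with 2 of 8 above and 6 below. Most of that sum was *Ins1*, *Ins2* and *Iapp*, at 19.5% of the control counts and 19.6% of the AE counts. Every β-cell marker other than these hormone genes was below equality, with log2 ratios from -0.28 to -0.073. The granins are made by all endocrine cells, whereas *Slc30a8* is known best from β-cells. The 5 δ- and PP-cell markers had a median log2 ratio of 0.0047, with 1 above equality. All 10 acinar markers were below equality, from 2326 to 1770 CPM in sum. Of the lymphocyte markers 7 were kept, all above equality and 6 past 2-fold. Neurons also make granins, and the nerve and Schwann cell markers summed to 70.4 and 84.0 CPM, with 2 of 8 kept above equality. The fibroblast and endothelial markers summed to 606 and 634 CPM, with 5 of 10 above equality and 3 past 2-fold. None of these lists other than the lymphocyte one held a gene at 0.

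Immediate early genes, many of which answer to cyclic AMP and calcium, summed to 4795 CPM in the control library and 2482 CPM in the AE library. Of the 17 kept, 13 were below equality and 6 past 2-fold lower, among them *Fosb* (489 and 140 CPM), while *Fos* was at 1143 and 574 CPM. Their part in the members' values was not tested.

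Other genes of the granule pathway were set beside the members. Of the 12 genes of granule cargo and prohormone processing, 0 were past 2-fold, 7 were above equality and 3 below, and the median log2 ratio was 0.063. *Ins2* stood at 128469 and 123712 CPM and *Ins1* at 48775 and 50964 CPM, the insulin genes thus leaning in opposite directions. *Iapp*, amylin, was at 18135 and 21187 CPM, and the convertase *Pcsk2* at 4823 and 5009.9 CPM. Of the 24 genes of granule biogenesis, traffic and exocytosis, 0 were past 2-fold, 7 were above equality and 6 below, with a median of -0.031. The granule tether *Sytl4* was at 439 and 401 CPM, a log2 ratio of -0.13 (-0.17 to -0.082), beside the calcium sensor *Syt7* at 374 and 412 CPM, 0.15 (0.099 to 0.19).

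Of the 23 zinc transporters and metallothioneins besides *Slc30a8*, 18 were kept, 0 were past 2-fold higher and 1 was past 2-fold lower, 3 were above equality and 6 below, and their median was -0.021. The one past 2-fold was *Slc39a5*, with 14 and 6 counts, named after its values were seen. *Slc39a7*, which releases zinc from the endoplasmic reticulum, was at 270 and 254 CPM, and the metallothionein *Mt1* at 176 and 152 CPM. *Slc30a5*, a zinc transporter of the early secretory pathway, leaned the other way, at 100.1 and 112 CPM. *Slc30a8* was thus the most abundant zinc transporter of the list by CPM in both libraries, and its log2 ratio of -0.13 lay within the range of the others, with or without *Slc39a5*. *Slc30a10* was at 0 in both libraries, and *Slc30a2* and *Slc30a3* were at 0 in the control library.

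Of 15 other receptor-type tyrosine phosphatases kept, 2 were above equality and 6 below, with a median of -0.050. *Ptprf*, the most abundant, was at 494 and 465 CPM, below *Ptprn* and *Ptprn2* in both libraries. *Ptprc* (CD45), the leukocyte phosphatase, was the single one past 2-fold, with 66 and 343 counts, in the library where the lymphocyte markers were high. Of the 13 transcription factors of endocrine granule genes, 0 were past 2-fold, 2 were above equality and 6 below, with a median of -0.069. *Nkx6-1* was at 539 and 448 CPM, *Mafa* at 475 and 441 CPM and *Pax6* at 299.95 and 272 CPM. All 3 had a lower level in the AE library.

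**Figure D5:**
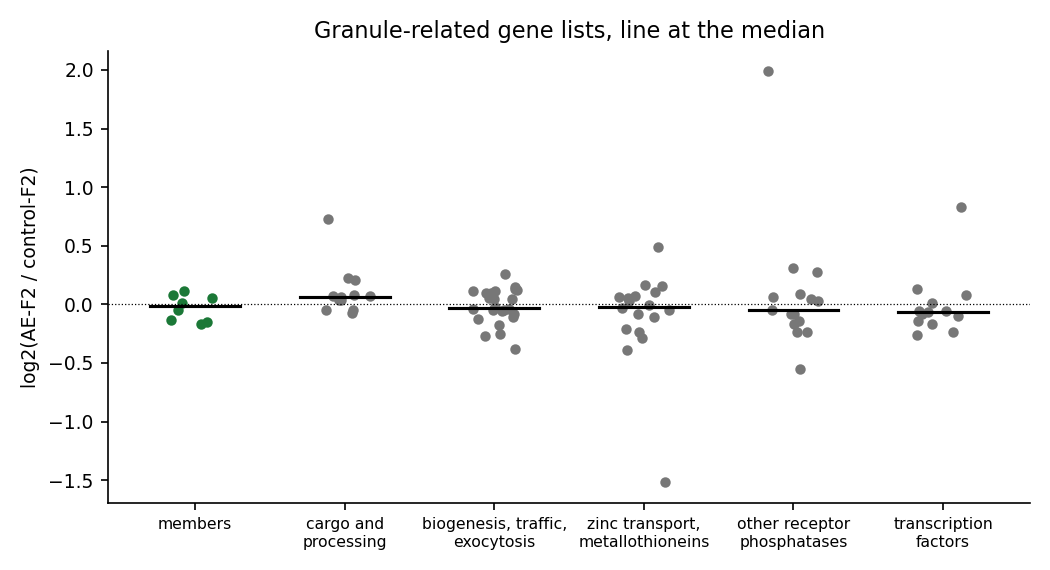
Log2 ratio of AE over control of each kept gene (points) in the 8 members and in 5 lists of granule-related genes, with a line at each median. The medians lie between -0.069 and 0.063, and the members range from -0.17 to 0.11.

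With 2 libraries the likeness of patterns between genes is weak, and the nearest protein-coding gene in log2 CPM is given as a description. *Ptprn* lay nearest to *Papss2* (677 and 609 CPM, distance 0.011), *Vgf* to *Agrn* (24.8 and 22.0 CPM, distance 0.0031) and *Chgb* to *Hsp90b1* (1647 and 1705 CPM, distance 0.083). The neighbour of *Slc30a8* was the convertase inhibitor gene *Pcsk1n* (967 and 916 CPM, distance 0.11), itself a granule protein, and that of *Ptprn2* was *P4hb* (1138 and 1125 CPM, distance 0.077). *Scg2* had no close neighbour, since the nearest was *Chga* at a distance of 0.72. *Chga* was nearest to *mt-Co1* at 0.074 and *Scg3* to *Atp2a2* at 0.18.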

How the data were processed

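RNA-seq was performed on islets of F2 males, which were isolated with collagenase, purified on a gradient and picked by hand. mRNA was enriched with oligo(dT) and prepared with a kit that does not mark strand. The authors deposited estimated counts per gene for each library, not scaled for depth or length. The paper's methods name HISAT2 as aligner, whereas the submitters' processing notes name Bowtie2, RSEM and DESeq2. The genome build and annotation behind the counts are not given in the sources used here.

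Counts were rounded to whole numbers, which changed none of the members' values. Symbols, positions and lengths were taken from GENCODE M21 (GRCm38), which matched 21806 of the 21899 genes and need not be the authors' own annotation. TMM factors were computed with edgeR 4.0.16 (R 4.3.3), the 13627 genes averaging 10 counts or more were kept, and a pseudocount of 0.5 was added before log2 ratios were taken. Clopper-Pearson intervals at 95% came from scipy 1.17.1. A call means a ratio past 2-fold or an interval that leaves out equality. The calculation was tested on simulated data. The total counts of 16285876 and 21278503 differ by 1.31-fold, so the AE library gives the smaller counting error.

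The members and the 13 other gene lists were chosen with earlier results of these data known. Genes named are the 8 members, up to 4 of each list with the highest mean CPM or past 2-fold with a mean of at least 100 counts, and the gene nearest to each member in log2 CPM. Genes at 0, *Slc30a2*, *Slc30a3*, *Slc30a10*, *Cd3d*, *Cd3e* and *Cd3g*, were chosen after their values were seen. Alternatives were size factors from DESeq2 1.42.0, library totals with and without hormone and mitochondrial genes, other minimum counts, a pseudocount of 5, a 1.5-fold threshold, removal of GC and length trends, and thinning of the AE counts. The promoter windows come from RefSeq.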

Additional observations from a re-analysis of the deposited data

How the results depend on the processing

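Each member kept the sign of its log2 ratio under all 6 alternatives run for it, and 40 of 48 values stayed within the counting interval. The others moved. With library totals taken without *Ins1*, *Ins2*, *Gcg* and mitochondrial genes, *Chga* was at 0.030 and *Scg2* at 0.070. With trends over GC content and transcript length removed, *Chga* was at 0.044, *Scg2* at 0.021, *Scg3* at 0.045, *Ptprn* at -0.067, *Ptprn2* at -0.015 and *Slc30a8* at -0.19, and 4 members lay above equality and 2 below in place of 3. The cause was not tested, and no share over all genes is given for the counts under that setting. The median of the members was -0.017, and 0.0030 without those trends. No member passed 1.5-fold. None of the other library size scalings, DESeq2 size factors and library totals with or without hormone and mitochondrial genes, shifted ratios by more than 0.016. TPM was not among the alternatives, and in TPM *Chga* was lower in the AE library, at 14272 in the control library and 14042 in the AE library. The GC and thinning settings for counts and medians and the merged-exon lengths were chosen after seeing the data. No paired analysis was possible because 1 library per group was analysed here. The counting interval of *Vgf* spans equality, and no spread between libraries of a group is known for any member.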
